A study of Cricetiscus sungorus with 16 samples.

Results

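Oocyte regulators and maternal effect genes were followed in the ovaries of female Siberian hamsters raised in long or short days and sampled at 3 and 8 wk of age. The set is a list of 10 genes, namely Figla, Nobox, Sohlh1, Lhx8, Nlrp5, Padi6, Npm2, Zar1, Dppa3 and Mos, each found on the array by its mouse transcript identifier. Of these, 9 were on the array, Sohlh1 being absent from it, and 5 passed the detection filter and were tested, among 20143 tested identifiers of 33272 on the array. The rule that picks the probes uses identifiers and no measured value, but the genes were chosen with earlier results of these data known.

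An oocyte first needs transcription factors that build the primordial follicle and start the oocyte's own program. During growth it then transcribes and stores maternal products, which carry the egg through fertilisation and the first cleavages before the embryo's genome is active. Maternal effect genes are those whose loss in the mother lets eggs form but stops or harms the embryos, and a separate kinase holds the mature egg in meiotic arrest.

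The study asked how ovaries of this seasonal breeder develop under each day length. From gestation onward hamsters lived under long days (LD) with 16 h of light daily or under short days (SD) with 10 h, and both ovaries of an animal were taken at 3 or 8 wk. There were 4 groups of 4 animals, LD at 3 wk, SD at 3 wk, LD at 8 wk and SD at 8 wk, each animal on its own array, which gave 16 arrays. For the SD group at 8 wk the labels conflict: 16 h stands in the title and treatment, next to SD, but 10 h in the description, which was followed here. The RNA came from whole ovaries of hamsters and was hybridised to probes designed for mouse transcripts, and how well each probe matches the hamster transcript was not tested.

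Levels are log2 of the probe's processed intensity minus the 75th percentile of its own array, so they serve to compare arrays for a probe and not a probe with another. The percentile spanned 269 to 1007 over the arrays, with its lowest values on slide 1, whose arrays also held 775 to 1278 spots flagged as outliers against 64 to 207 elsewhere. The share of probes well above background ranged from 58.0% to 75.7%. Each of the 4 slides carried 1 array of each group, and replicate numbers here are slide numbers. A group lay at the same place on every slide, so group and place cannot be told apart.

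Among the tested members, 4 were bright on every array, the transcription factor Lhx8, the stored proteins Padi6 and Zar1 and the kinase Mos. All 4 had lower levels at 8 wk than at 3 wk in both day lengths, by 2.48- to 2.96-fold, and Padi6, Zar1 and Mos passed the test in both. The test was limma, with Benjamini-Hochberg adjustment over 20143 identifiers and a threshold of 0.05. In LD, 3 of 5 tested members fell and 0 rose, where 1.8% of all tested identifiers fell and 1.22% rose. In SD, 3 of 5 fell and 0 rose, where 4.39% of all tested identifiers fell and 4.78% rose. The same 3 members fell in both day lengths, as did 1.61% of all tested identifiers. The median change of the 5 tested members was -1.41 in LD and -1.35 in SD on the log2 scale, against -0.04 and 0.00 over all tested identifiers. With only the LD groups in the fit the LD count was 1, and with normexp background correction, which a few stray spots distorted, both counts were 0. The share of all tested identifiers that fell was not taken under either alternative. In RNA from whole ovaries, fewer oocytes for the amount of tissue and less of a transcript in each oocyte cannot be told apart.

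**Figure D1:**
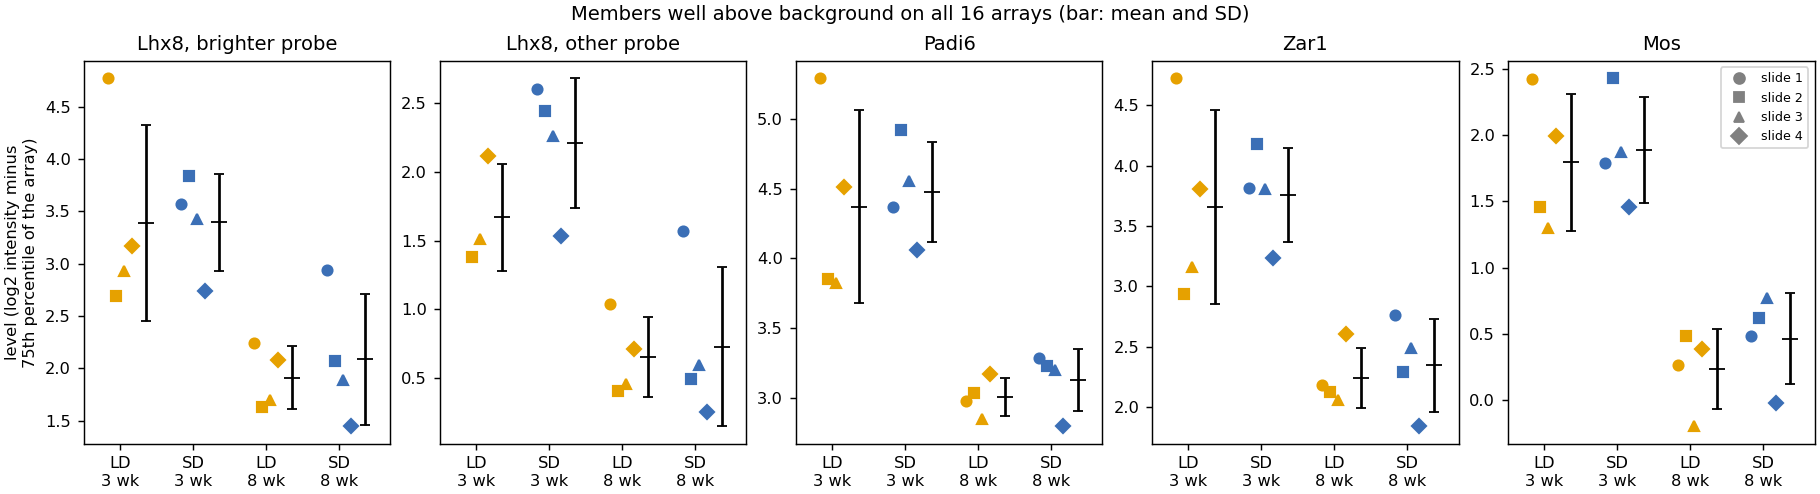
Level of each array (log2 intensity minus the array's 75th percentile) for both Lhx8 probes, Padi6, Zar1 and Mos in the 4 groups, with slides as symbols and the mean and standard deviation of the 4 hamsters as bars. For Padi6, Zar1 and Mos the lowest array at 3 wk lies above the highest array at 8 wk within each day length, while the LD and SD points of an age lie among each other.

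Among the transcription factors, Figla (NM_012013) switches on the zona pellucida genes and is needed for primordial follicles to form. Its probe was not well above background on any of the 16 arrays, with processed intensities of 2.30 to 23.4. Nobox (NM_130869), a homeobox factor that drives early oocyte genes, was well above background on 5 of 16 arrays, with intensities of 2.43 to 22.7. Neither was tested, and for neither does the probe give a level that can be compared between groups.

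Lhx8 (NM_010713), a LIM homeobox factor needed for oocytes to survive and grow past the primordial stage, was the bright member of this class. In LD at 3 wk its level was 4.77, 2.69, 2.93 and 3.17 on slides 1 to 4, and at 8 wk it was 2.24, 1.63, 1.69 and 2.08. In SD it was 3.57, 3.84, 3.43 and 2.74 at 3 wk and 2.94, 2.07, 1.89 and 1.45 at 8 wk. In LD the lowest 3-wk array lay above the highest 8-wk array, whereas in SD the 8-wk array of slide 1 lay above the 3-wk array of slide 4. The LD mean went from 3.39 ± 0.94 to 1.91 ± 0.30 (standard deviation, n = 4 hamsters at each age), a change of -1.48 (SE 0.40, limma adjusted p = 0.0579). In SD the mean went from 3.39 ± 0.47 to 2.09 ± 0.62, a change of -1.31 (SE 0.40, limma adjusted p = 0.0502). Lhx8 therefore passed the threshold in neither day length without the slide in the fit. With the slide as a block it passed in both, with limma adjusted p = 0.00796 in LD and 0.00729 in SD, which makes 4 of 5 tested members that fell in each, where 7.95% and 12.2% of all tested identifiers fell.

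The array holds a dimmer Lhx8 probe as well, which gave 1.67 ± 0.39 (n = 3, a flagged spot being left out) and 0.65 ± 0.29 at 3 and 8 wk in LD, and 2.21 ± 0.47 and 0.73 ± 0.58 in SD. With every probe fitted on its own, its change was -1.02 in LD (limma adjusted p = 0.108) and -1.48 in SD (limma adjusted p = 0.00490). With the slide as a block these were -1.20 (limma adjusted p = 0.0100) and -1.48 (limma adjusted p = 0.000767). Both probes were thus lower at 8 wk in both day lengths. Over the arrays measured, the larger change was in LD for the brighter probe and in SD for the dimmer probe. The dimmer probe had no value for LD at 3 wk on slide 1, however. Without slide 1 the brighter probe changed by -1.125 in LD and -1.53 in SD, so its larger change was then in SD as well.

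Among the maternal effect genes, Padi6 (NM_153106) encodes a peptidylarginine deiminase family protein of the cytoplasmic lattices, where the egg stores ribosomes and maternal proteins. Its level in LD at 3 wk was 5.29, 3.86, 3.82 and 4.51 on slides 1 to 4, and at 8 wk it was 2.98, 3.03, 2.85 and 3.17. In SD it was 4.37, 4.92, 4.56 and 4.06 at 3 wk and 3.29, 3.23, 3.20 and 2.80 at 8 wk. The ages did not overlap in LD or in SD, a separation that 5.26% of all tested identifiers showed downward in LD and 7.83% in SD. The 8-wk arrays lay close together, and most of the spread was among the 3-wk LD arrays. Padi6 fell by 1.36 in LD on the log2 scale (SE 0.27, 2.57-fold lower, limma adjusted p = 0.0126). In SD it fell by 1.35 on the log2 scale (SE 0.27, 2.55-fold lower, limma adjusted p = 0.00472).

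Zar1 (NM_174877), a zygote arrest protein that binds maternal RNAs in the oocyte, had almost the same pattern. In LD its level was 4.72, 2.93, 3.16 and 3.81 at 3 wk and 2.19, 2.12, 2.06 and 2.60 at 8 wk. In SD it was 3.82, 4.18, 3.81 and 3.24 at 3 wk and 2.76, 2.29, 2.49 and 1.84 at 8 wk. Again every 3-wk array lay above every 8-wk array of the same day length. The change was -1.41 in both day lengths (SE 0.32, 2.66-fold lower), with limma adjusted p = 0.0243 in LD and 0.0108 in SD. The LD call was lost when replicate 1 or 4 of LD at 3 wk, or replicate 2 or 3 of LD at 8 wk, alone was left out (limma adjusted p = 0.0510, 0.0819, 0.0720 and 0.0735).

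The other maternal effect genes gave little signal. Npm2 (NM_181345), a nucleoplasmin that remodels chromatin in the egg, was well above background on 13 of 16 arrays at intensities of 5.19 to 139.8. In LD its mean level was -4.17 ± 0.20 at 3 wk and -4.21 ± 1.17 at 8 wk, and in SD it was -4.65 ± 0.58 and -4.65 ± 0.57. The groups overlapped in every comparison, and the widest spread, in LD at 8 wk, ran from -5.69 on slide 1 to -2.83 on slide 3. Its age change was -0.05 in LD (95% interval -1.04 to 0.94, limma adjusted p = 0.993) and 0.01 in SD (-0.99 to 1.0, limma adjusted p = 0.997). Npm2 passed the filter through LD at 3 wk, where 4 of 4 arrays were well above background against 3 of 4 in each other group. So close to background, these values do not bound the change of the transcript.

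Nlrp5 (NM_011860), a member of the subcortical maternal complex also known as Mater, was well above background on 12 of 16 arrays, 3 in each group, and so missed the filter. Its level was -4.42 ± 0.32 and -4.54 ± 0.18 in LD and SD at 3 wk, and -4.75 ± 0.21 and -4.72 ± 0.30 at 8 wk. The groups overlapped in all 4 pairwise comparisons. Fitted with no filter, its age change was -0.33 in LD (95% interval -0.84 to 0.18, limma adjusted p = 0.918) and -0.17 in SD (-0.68 to 0.34, limma adjusted p = 0.908), with the same limit as for Npm2. Dppa3 (NM_139218), also called Stella, protects maternal chromatin in the fertilised egg. Its probe was not well above background on any array, with intensities of 1.67 to 8.10.

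**Figure D2:**
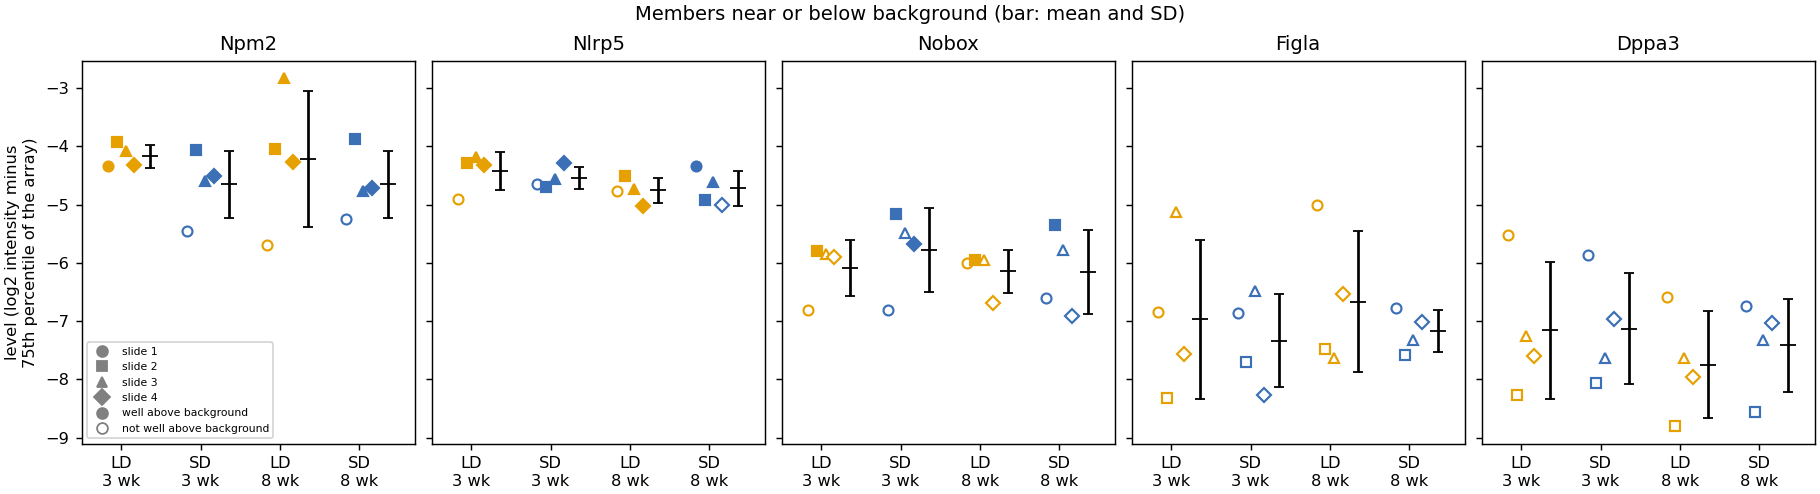
Level of each array (log2 intensity minus the array's 75th percentile) for Npm2, Nlrp5, Nobox, Figla and Dppa3, with filled symbols where the spot was well above background and bars for the mean and standard deviation of the 4 hamsters. Filled symbols appear on 13, 12 and 5 of 16 arrays for Npm2, Nlrp5 and Nobox and on 0 for Figla and Dppa3.

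Mos (NM_020021), the kinase that activates the MAP kinase pathway and holds the egg at the second meiotic metaphase, had the smallest limma p-values of the members. In LD its level was 2.43, 1.46, 1.30 and 2.0 on slides 1 to 4 at 3 wk, and 0.26, 0.48, -0.20 and 0.38 at 8 wk. In SD it was 1.79, 2.43, 1.87 and 1.46 at 3 wk and 0.48, 0.61, 0.77 and -0.03 at 8 wk. The gap between the lowest 3-wk and the highest 8-wk array was 0.82 in LD and 0.69 in SD. Mos fell by 1.57 in LD on the log2 scale (SE 0.26, 2.96-fold lower, limma adjusted p = 0.00550). In SD it fell by 1.43 on the log2 scale (SE 0.26, 2.69-fold lower, limma adjusted p = 0.00264). Ordered from the most negative age change, Mos stood at place 43 of 20143 identifiers in LD and 251 in SD. Lhx8, Zar1 and Padi6 stood at places 64, 94 and 125 in LD and 371, 270 and 327 in SD.

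Within slides the 4 bright members were lower at 8 wk on 4 of 4 slides in each day length. For Mos the within-slide change ran from -2.17 to -0.98 in LD and from -1.82 to -1.10 in SD. For Padi6 it ran from -2.31 to -0.82 and from -1.69 to -1.08, and for Zar1 from -2.53 to -0.81 and from -1.88 to -1.06. For Lhx8 it ran from -2.53 to -1.06 and from -1.77 to -0.63. In LD the largest fall of each of the 4 was on slide 1, and in SD it was on slide 2. The changes of the 4 members were also compared with each other over 8 arrays at each age. The 6 pairwise differences between members lay between -0.04 and 0.14 log2 units, with two-sided exact permutation p from 0.113 to 0.862 and Benjamini-Hochberg adjusted p from 0.680 to 0.862 over the 6. Arrays were permuted over age without regard to slide or day length, and a high p does not show equal changes.

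No tested member passed the test between short and long days at either age. At 3 wk SD minus LD was 0.01 for Lhx8 (95% interval -0.84 to 0.85), 0.11 for Padi6 (-0.47 to 0.68), 0.10 for Zar1 (-0.58 to 0.79) and 0.09 for Mos (-0.47 to 0.65). For Npm2, which passed the filter through LD at 3 wk and was not well above background on the SD array of slide 1, it was -0.49 (-1.48 to 0.50). With limma 0 of 5 tested members passed, at an adjusted p of 1 for each, where 0% of all tested identifiers passed and 1.63% had an unadjusted p under 0.05, none of the 5 members among them. For the 4 bright members the slides disagreed in sign. For Zar1 SD minus LD at 3 wk was -0.90, 1.24, 0.64 and -0.57 on slides 1 to 4, and Lhx8, Padi6 and Mos had the same signs on the same slides.

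At 8 wk SD minus LD was 0.17 for Lhx8 (95% interval -0.67 to 1.02), 0.12 for Padi6 (-0.45 to 0.69), 0.10 for Zar1 (-0.58 to 0.79), 0.23 for Mos (-0.33 to 0.79) and -0.43 for Npm2 (-1.43 to 0.56). With limma 0 of 5 passed (adjusted p = 0.9998 for each) and 0 had an unadjusted p under 0.05, where 0.958% of all tested identifiers passed and 6.94% had an unadjusted p under 0.05. On slide 4 the SD animal was below the LD animal for all 4 bright members, and on the other 3 slides it was above. Each interval of the 4 bright members thus leaves room for photoperiod differences of up to about the size of its outer bound. The interval of Npm2, so close to background, does not bound the difference of its transcript. A missed threshold does not show equal levels.

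**Figure D3:**
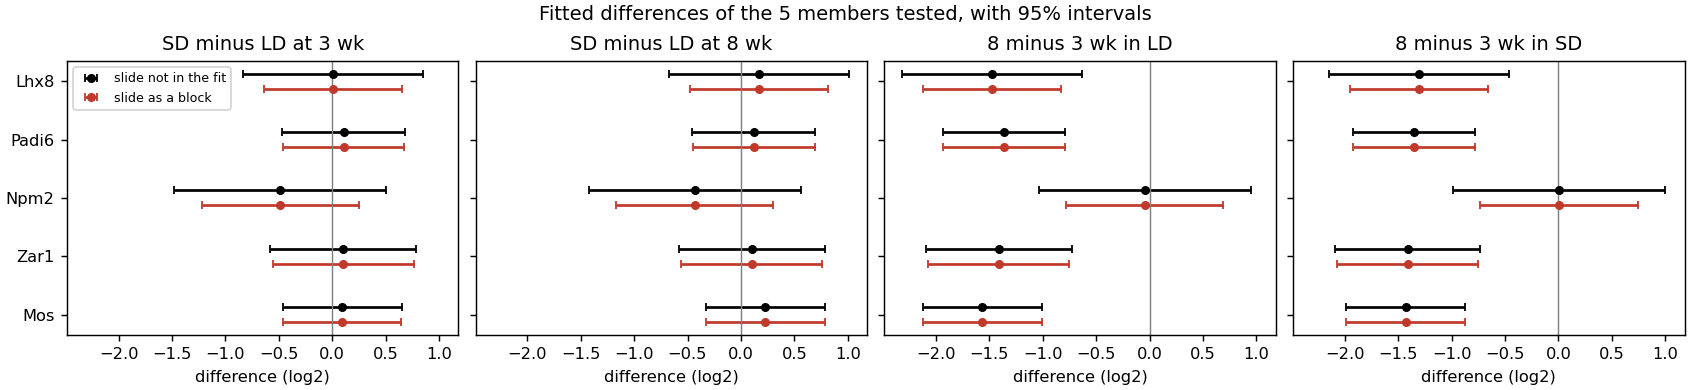
Fitted differences (log2) of the 5 tested members in the 4 pairwise comparisons with 95% intervals, without the slide in the fit (black) and with the slide as a block (red). Intervals of Lhx8, Padi6, Zar1 and Mos lie below 0 in both age comparisons, and those of the 5 members include 0 in both photoperiod comparisons.

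The difference between the age changes, SD minus LD, was tested as an interaction. It was 0.17 for Lhx8 (95% interval -1.02 to 1.36), 0.01 for Padi6 (-0.80 to 0.82), -0.00 for Zar1 (-0.97 to 0.96), 0.14 for Mos (-0.65 to 0.93) and 0.05 for Npm2 (-1.35 to 1.46). With limma 0 of 5 passed (adjusted p = 0.9999 for each) and 0 had an unadjusted p under 0.05, where 0.0596% of all tested identifiers passed and 3.04% had an unadjusted p under 0.05. For Padi6, Zar1 and Mos the intervals leave out an SD fall that is 1 log2 unit larger or smaller than the LD fall.

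The bright members varied together among animals of a group. In LD at 3 wk the hamster on slide 1 had the highest level and that on slide 4 the next for all 4. In SD at 3 wk slide 2 was highest and slide 4 lowest for all 4, and in SD at 8 wk slide 4 was lowest for all 4. In LD at 8 wk slide 3 was lowest for Padi6, Zar1 and Mos, and slide 2 for Lhx8. As a description, Padi6, Zar1, Lhx8 and Mos correlated with the mean of the 4 members at Pearson r of 0.998, 0.997, 0.990 and 0.988 over 16 arrays after the slide effect was removed. The 4 are part of that mean, and arrays share the age difference. Npm2 correlated with it at 0.08 and ranked 9094 of 18648 identifiers measured on all arrays. The closest identifiers outside the set were NM_007413 and NM_029815, at r of 0.995 each, whose genes the files do not name. Their age changes were -1.36 and -1.46 in LD and -1.34 and -1.47 in SD.

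Other oocyte genes were taken from a list of 20, of which 16 were tested. In LD 3 of them fell and 0 rose: Zp2, a zona pellucida protein, which fell by 1.35 on the log2 scale (limma adjusted p = 0.0257), and the oocyte growth factors Gdf9, which fell by 1.60 (limma adjusted p = 0.0110), and Bmp15, which fell by 1.86 (limma adjusted p = 0.0101). In SD 5 fell and 0 rose. These were Zp2 (-1.73, limma adjusted p = 0.00132), Zp3 (-1.60, limma adjusted p = 0.00960), Gdf9 (-1.51, limma adjusted p = 0.00908), Bmp15 (-1.59, limma adjusted p = 0.00960) and Ooep, a subcortical maternal complex protein (-1.74, limma adjusted p = 0.00450). Zp1, the remaining zona gene of the list, had changes of -1.18 in LD and -0.71 in SD (limma adjusted p = 0.379 and 0.624). The median change over the 16 was -0.31 in LD and -0.25 in SD. Several of the 16 lay near background, among them Nlrp14, Oosp1 and Kit, with mean levels of -5.02, -4.38 and -4.29 in LD at 3 wk, so the medians of the lists are not compared. Small changes were also fitted for listed genes at higher levels. In LD and SD they were -0.15 and -0.14 for Tcl1, -0.03 and 0.40 for Gja4 and -0.24 and -0.19 for H1foo. Mean levels of these genes in LD at 3 wk were 1.24, -0.09 and 1.34. With the slide as a block 5 fell in each day length, Zp3 and Ooep joining in LD (limma adjusted p = 0.0166 and 0.00447 with the block).

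Germ cell and meiosis genes came from a list of 8, of which 5 were tested and 0 passed in either day length with limma. Their median changes were -1.12 and -1.14. With the slide as a block 3 fell in LD and 4 in SD. Among them was Dazl, an RNA-binding protein of germ cells, with changes of -1.12 (limma adjusted p = 0.0146 with the block) and -1.14 (limma adjusted p = 0.00657 with the block). Mael, another of them, had -1.26 and -1.37 (limma adjusted p = 0.0110 and 0.00339 with the block). Rec8, at mean levels of 2.57 to 2.69, had -0.08 in LD and 0.03 in SD (limma adjusted p = 0.927 and 0.961), and did not pass with the block. None of the 16 other oocyte genes and none of the 5 germ cell genes passed between SD and LD at 3 or at 8 wk, with or without the block.

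**Figure D4:**
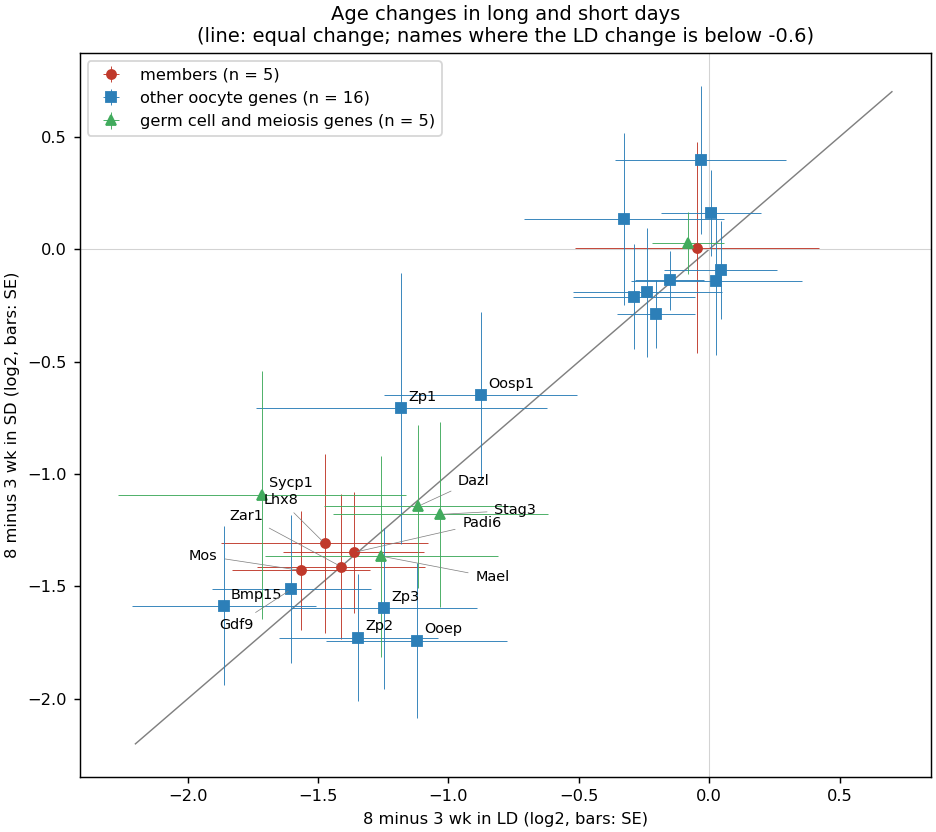
Age change (8 minus 3 wk, log2, with standard errors) in LD on the horizontal and in SD on the vertical axis for the 5 tested members, 16 other oocyte genes and 5 germ cell and meiosis genes, with a line of equal change. Lhx8, Padi6, Zar1 and Mos lie between -1.57 and -1.31 on both axes beside Gdf9, Bmp15, Zp2, Zp3 and the germ cell gene Mael. Npm2 and several of the other listed genes lie near 0 on both.

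Markers of other ovarian cells also moved with age. Of 9 granulosa markers, 2 fell in LD and 3 fell and 2 rose in SD, and with the slide as a block 3 fell in LD and 5 fell and 2 rose in SD. Without the block, Amh (-1.52 in LD and -1.21 in SD) and Fshr (-1.08 and -1.36) passed in both day lengths. Inhbb (-3.27), Cyp19a1 (4.02) and Hsd17b1 (1.04) passed in SD alone. Hsd17b1 lay near background at 3 wk, with mean levels of -4.39 in LD and -4.45 in SD, so its value does not bound the change of its transcript. The summed level (log2, over arrays that measured every marker of a list) weighs the brightest probes most. Among the granulosa markers that was Inha, at a mean of 8.31 in LD at 3 wk. The granulosa sum ran from 8.47 to 8.78 at 3 wk on 3 arrays and 8.17 to 9.10 at 8 wk in LD. In SD it ran from 8.11 to 9.31 and 7.33 to 8.09. Of 5 tested theca, interstitial and luteal markers, 0 passed in LD and 3 rose in SD, and with the block 1 rose in LD, the steroid enzyme gene Hsd3b1 (limma adjusted p = 0.0416), and 4 in SD, with summed levels of 4.35 to 5.15 and 3.95 to 6.50 in LD and 3.72 to 4.72 and 5.35 to 7.03 in SD. Lhcgr, the luteinising hormone receptor, was not well above background on any array. Star, among those that rose in SD, lay near background at 3 wk, with mean levels of -4.18 in LD and -3.91 in SD. Of 5 stroma and vessel markers 1 fell in LD and 2 in SD, and with the block 2 fell and 1 rose in each, with summed levels of 8.48 to 9.15 and 8.29 to 9.19 in LD and 8.38 to 9.09 and 8.24 to 9.07 in SD. Of 3 leukocyte markers 1 rose in each day length, also with the block, with summed levels of 3.08 to 4.39 on 3 arrays and 4.72 to 4.90 in LD and 2.88 to 4.79 and 3.97 to 5.05 in SD. Of 3 oviduct and epithelial markers 1 rose in each, also with the block, with summed levels of -0.50 to 0.03 and 0.12 to 0.32 in LD and -0.35 to -0.17 and -0.12 to 0.29 in SD. The summed level of the 5 tested members ran from 4.97 to 6.62 and 3.96 to 4.37 in LD, and from 5.15 to 6.09 and 3.84 to 4.68 in SD. The part of these other cells in the members' changes was not tested.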

How the data were processed

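RNA of 16 hamsters was hybridised to 1-colour mouse arrays, and per the file headers the authors used Agilent Feature Extraction 10.5.1.1. The deposited scanner files hold each spot's processed intensity, background-corrected by the authors, linear and, as its differing percentiles show, not normalised between arrays. From these deposited intensities log2 levels were computed, less each array's 75th percentile, without spots flagged as outliers.

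Probes were tested if all 4 arrays of 1 group or more were well above background, with values on 12 or more arrays, 2 or more per group and per slide. Each identifier was represented by its brightest probe. Fits used limma 3.58.1 (R 4.3.3, eBayes with trend) over all 16 arrays. They were also run on simulated arrays that held no slide effect, so that run does not cover slide effects. The labels give no replicate numbers: slide numbers were used. Deviations from group means were correlated between slide-mates (median 0.451, 0.224 to 0.727 over 24 pairs), so the fit with the slide as a block is given where it changes a call.

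Members and gene lists were chosen with earlier results of these data known. Named were the 10 members, listed genes past the threshold where a member passed, and Zp1, Zp2, Zp3, Gdf9 and Bmp15. Dazl, Mael, Rec8, Lhcgr, Hsd3b1, Star, Nlrp14, Oosp1, Kit, Tcl1, Gja4 and genes in the closing section were named after their values were seen. So were the granulosa markers Amh, Fshr, Inhbb, Cyp19a1, Hsd17b1 and Inha. The files hold identifiers without symbols; member names come with the list, and those of other listed genes were assigned by identifier and not checked against a table. Sequences are not used here. p-values rest on the spread between these hamsters and their arrays. Without the slide in the fit, slide differences are part of that spread.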

Additional observations from a re-analysis of the deposited data

Results flagged for a closer look

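Among 39 sets of 4 arrays examined for a single array far from the rest, 2 stood out, about as many as chance gives at 1 in 20, and both belong to Nobox. Its level was -6.81 on replicate 1 of LD at 3 wk, where the other 3 arrays lay between -5.89 and -5.79. It was -6.69 on replicate 4 of LD at 8 wk, where the other 3 lay between -5.99 and -5.94. Nobox was not well above background on either array, and it was not tested.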

How the results depend on the processing

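Over 33 alternatives the age changes of Lhx8, Padi6, Zar1 and Mos were negative in 33 of 33 in each day length, from -1.73 to -1.02 in LD and from -1.59 to -1.10 in SD. The count of members that fell, 3 in LD and 3 in SD, became 0 and 0 with normexp background correction. On 5 arrays 4 to 13 spots with stray bright local background had distorted that correction, and without those spots, an alternative chosen after seeing the data, the counts were 4 and 4. With only the 2 groups compared in the fit the LD count was 1. With slides 3 and 4 alone and the slide as a block, also chosen after seeing the data, the counts were 0 and 1, with fewer samples. The 1 in SD was Lhx8 (limma adjusted p = 0.0410). Padi6, Zar1 and Mos did not pass there (limma adjusted p = 0.0586, 0.0833 and 0.106 in SD). The share of all tested identifiers that fell was not taken under either normexp version, the 2-group fits or slides 3 and 4. The counts of those alternatives therefore cannot be set against that share. Leaving out single arrays, Mos and Padi6 passed limma in 16 of 16 fits in both day lengths and Zar1 in 12 of 16 in LD and 16 of 16 in SD. Over all 33 alternatives Lhx8 passed in 8 in LD and in 13 in SD, among them quantile normalization and the percentile taken over all spots. Leaving out single arrays, it passed in 2 of 16 in LD and 4 of 16 in SD, and without slide 1 in both (limma adjusted p = 0.0256 and 0.00274). Over the alternatives limma adjusted p ran from 0.0101 to 1 for Zar1 in LD. The slide as a block changed no other call of a member. No member passed between SD and LD or in the interaction under any alternative run. The number of arrays limits precision, and for Figla, Nobox, Nlrp5, Dppa3 and Npm2 the signal over background does.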

Other observations

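Several listed oocyte genes outside the set had small fitted age changes, some of them at levels near background. Kit, the receptor on the oocyte that binds Kit ligand, had changes of 0.04 in LD and -0.09 in SD (limma adjusted p = 0.986 and 0.899), at mean levels of -4.29 to -4.07. Sohlh2, the partner of the absent Sohlh1, had changes of 0.01 and 0.16 (limma adjusted p = 0.998 and 0.766), at mean levels of 0.86 to 1.02. Oog1, an oocyte gene of the leucine-rich repeat family, had changes of 0.03 and -0.14 (limma adjusted p = 0.995 and 0.898), at mean levels of -3.63 to -3.46. The lowest level well above background ran from -6.53 to -4.43 over the arrays, so the small changes of Kit and Oog1 do not bound the change of their transcripts. H1foo, the oocyte linker histone, had changes of -0.24 and -0.19 (limma adjusted p = 0.870 and 0.826), at mean levels of 1.0 to 1.34.

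Ooep, Tle6 and Khdc3 encode other proteins of the subcortical maternal complex, to which Nlrp5 belongs. Ooep had -1.12 in LD (limma adjusted p = 0.102, and 0.00447 with the slide as a block) and in SD fell by 1.74 on the log2 scale (limma adjusted p = 0.00450). Tle6 had -0.20 and -0.29 (limma adjusted p = 0.671 and 0.309), and Khdc3, at mean levels of -3.73 to -3.28, had -0.29 and -0.21 (limma adjusted p = 0.717 and 0.742). The mean level of Tle6 was -0.65 ± 0.06 in LD at 3 wk and -0.85 ± 0.23 at 8 wk (standard deviation, n = 4). Differences between these genes' changes were not tested.

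Of the listed oocyte genes that missed the filter, Oas1d was well above background on 10 of 16 arrays, Bcl2l10 on 5, and Rfpl4 and Btg4 on 2 each. Ddx4, a helicase of germ cells, was well above background on 16 of 16 but was not tested, because too few values were left for the filter once flagged spots were left out.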
